A study of Mus musculus with 14 samples.

Results

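Integrins are the adhesion receptors with which leukocytes hold on to other cells and to matrix. The 10 integrin subunit genes described here were chosen by name and looked up by symbol among the 24556 mouse genes of the deposited table. They are Itgam, Itgax, Itgal and Itgb2, which form the leukocyte integrins, Itga4, Itgb7, Itga6 and Itgb1, and the alpha-v pair Itgav and Itgb5. All 10 were found, and all 10 passed the filter on low values.

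An integrin is a pair of an alpha and a beta subunit, and each subunit reaches the cell surface mainly in such a pair. Itgb2, known as CD18, pairs with Itgam (CD11b), Itgax (CD11c) and Itgal (CD11a). These receptors bind intercellular adhesion molecules and, for Itgam and Itgax, complement fragments and fibrinogen. Itga4 pairs with Itgb1 or Itgb7 and binds Vcam1 or fibronectin, Itga6 with Itgb1 binds laminin, and Itgav pairs with several beta subunits, Itgb5 among them, and binds vitronectin and other matrix proteins. CD11b is widely used as a surface marker of macrophages in mouse tumours.

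RNA came from the F4/80-positive fraction of fat pad tumours in Balb/c mice, separated on magnetic columns in 2 rounds. The tumours grew from 4T1, a line of mouse mammary carcinoma cells, which had first been kept in DMSO, the vehicle, or for 5 days in 5 µM GSK269962A, a small-molecule kinase inhibitor, so the macrophages themselves were not the cells that were treated. The groups were DMSO day 8 and GSK day 8, with 3 libraries each, and DMSO day 14 and GSK day 14, with 4 libraries each, where the day counts from injection. Age and sex of the mice are not given in the sources used here, the tumour cells were of 1 line, and the labels do not state that each library came from its own mouse, so p-values measure the spread between these samples, which may be technical.

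Values are the authors' log2-scale normalised expression, and the depth behind them is unknown, since they are not counts. Over 11886 kept genes, Pearson correlations were 0.967 to 0.993 between libraries of 1 group and 0.933 to 0.99 between groups. A pair of overlapping gene models split the libraries, with AY036118 the higher in 9 and Gm42418 the higher in 5. All 4 GSK day 14 libraries were of the first kind, against 2 of the DMSO day 14, 2 of the GSK day 8 and 1 of the DMSO day 8 libraries, so values within the first kind are given beside the main results. Macrophage markers were present in every library, with a summed level of 10 genes between 16.8 and 17.9. Markers of other cell types were mixed. Ly6g of neutrophils (2.54 to 2.96), Lck of T cells (1.75 to 2.10), Cd79a of B cells (1.43 to 1.73), Flt3 of dendritic cells (0.87 to 1.08) and Ppbp of platelets (1.02 to 1.26) lay below the filter of 3.32 in all 14. Other genes of the same lists lay above it in all 14, among them Retnlg (9.60 to 11.24), Mmp8 (6.02 to 8.09) and Csf3r (5.91 to 7.08) of the neutrophil list, Cd3e (4.34 to 5.20) and Cd2 (4.18 to 5.29), Cd79b (4.30 to 5.44) and Ighm (4.64 to 6.15), Batf3 (7.69 to 10.07) of the dendritic list and Pf4 (11.13 to 13.29) of the platelet list. S100a8 (3.7 to 4.4) and S100a9 (3.7 to 4.5) of the neutrophil list were also above the filter in all 14, but close to it. In these bulk samples fewer cells of a type and less RNA per cell cannot be told apart.

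Itgam (ENSMUSG00000030786) lies on the forward strand of chromosome 7 from 128062640 to 128118491 in the GRCm38 assembly. It shares its strand and 28 exons with Gm49368 (ENSMUSG00000108596), a longer protein-coding model that the table lists as a gene of its own, and 68.3% of the 31-base words of its transcripts also occur in other genes. Reads from the shared exons could be assigned to either gene. The last shared exon ends at 128116846. Itgam then continues at 128117306 and Gm49368 at 128126808, and there the coding sequences part at the 3′ end. The lines below show the models parting at the 3′ end of the shared exons: 30 coding bases of the shared exon are in lower case, and the first 30 bases of each gene's own next exon are in capitals, 5′ to 3′ from the GENCODE M21 transcripts.
Itgam: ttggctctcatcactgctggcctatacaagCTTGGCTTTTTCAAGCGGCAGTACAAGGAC
Gm49368: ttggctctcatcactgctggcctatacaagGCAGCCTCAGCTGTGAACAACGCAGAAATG

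The overlapping gene held little of the signal. Gm49368 had values between 5.39 and 6.93 over the 14 libraries while Itgam lay between 10.98 and 12.59, so Itgam made up 95.6% to 98.7% of the unlogged sum of both. Gm49368 differed between GSK and DMSO by -0.25 on day 8 and by -0.11 on day 14, and neither passed (limma adjusted p = 0.654 and 0.793). Among the other members, Itgax shared 10.7% of its words, mostly with Itgad, and the remaining 8 shared at most 8.85%. Cerkl overlaps exons of Itga4 on the opposite strand, and Gm13684 those of Itgav, and no source used here states whether the counting used strand.

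Itgam is followed on the same chromosome by Itgax, which starts at 128129547, and the upstream sequences of these neighbours are shown because both genes code for alpha partners of Itgb2. GAGGAA, the core of many sites of the myeloid transcription factor PU.1, was searched on both strands (TTCCTC on the other) in the 250 bases before the RefSeq start of each gene (GRCm38.p6). It occurred in 3 of the 7 members with an entry, Itgam, Itgav and Itgb1, and in 23.3% of 32851 promoters of that length. Itgb2, Itgal and Itga6 were not matched. Matches are in capitals, beginning 84 and 15 bases before the start of Itgam, at chr7:128062390-128062639 for Itgam and chr7:128129300-128129549 for Itgax, both on the forward strand.
Itgam: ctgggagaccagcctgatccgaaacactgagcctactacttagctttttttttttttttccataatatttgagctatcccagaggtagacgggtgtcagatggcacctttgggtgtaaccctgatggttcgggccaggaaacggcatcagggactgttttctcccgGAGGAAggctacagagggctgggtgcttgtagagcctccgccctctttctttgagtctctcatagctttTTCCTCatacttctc
Itgax: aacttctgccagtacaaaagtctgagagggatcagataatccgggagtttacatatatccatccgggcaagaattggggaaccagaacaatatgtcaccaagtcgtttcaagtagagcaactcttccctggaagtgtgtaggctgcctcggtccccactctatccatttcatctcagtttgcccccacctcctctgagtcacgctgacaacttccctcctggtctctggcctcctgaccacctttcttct

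Set per kb of exon, Itgam had the highest level of the 10 members, with a mean of 9.29 over the 14 libraries on the log2 scale per kb. Itgb1 followed at 8.56, Itgax at 8.32, Itgb5 at 8.02, Itgb2 at 7.58, Itgal at 6.96 and Itgb7 at 6.65. The ranges of each of these overlapped with those of its neighbours in the order. Itgav (5.03 per kb) lay below all 7 and above Itga4 (3.43 per kb) and Itga6 (3.31 per kb), without overlap between libraries, while Itga4 and Itga6 overlapped. Itgb2, the shared partner of the leukocyte integrins, thus had a lower level per kb than Itgam, by means of 7.58 and 9.29. Exon length here is that of all annotated exons merged, which makes genes with long untranslated regions, such as Itga4 with 13978 bases, look lower.

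**Figure D1:**
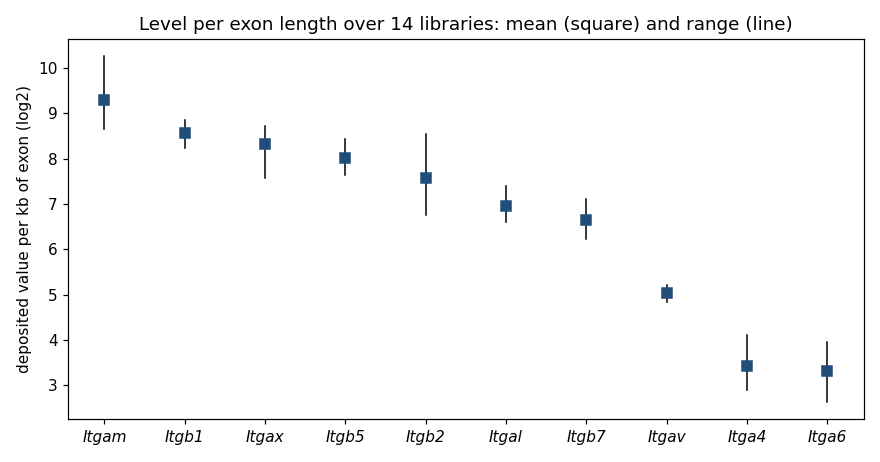
Mean deposited value per kb of merged exon, on the log2 scale, for each integrin gene over the 14 libraries (square), with the lowest and highest library (line). Itgam has the highest mean at 9.29, and Itgav, Itga4 and Itga6 lie apart from the other 7.

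The first comparison asks how macrophages of day 8 tumours differed with the pre-treatment of the tumour cells. Of the 10 members 0 passed the threshold in either direction (adjusted p under 0.05 in limma, over all kept genes), where 0.194% of all genes did. An unadjusted p under 0.05 was found for 2 of the 10, beside 1939 of the 11886 kept genes, a share near that of other genes. The lowest adjusted p was that of Itgam. Its values were 12.59, 11.76 and 11.62 in the DMSO libraries and 10.98, 11.08 and 11.12 in the GSK libraries. Every GSK library lay below every DMSO library, and DMSO library 1 stood well above the others. The log2 change was -0.93 (SE 0.19, 95% interval -1.34 to -0.52, 1.90-fold lower), from 11.99 ± 0.53 to 11.06 ± 0.07 (SD, n = 3 each), and it did not pass (adjusted p = 0.053, limma).

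The size of the day 8 difference in Itgam rested in part on DMSO library 1. Without it the change was -0.63 (adjusted p = 0.135). Without DMSO day 8 library 2 or 3 the change was -1.04 or -1.11, and both then passed (adjusted p = 0.0354 and 0.0305). Summed with Gm49368 the difference was -0.91 (adjusted p = 0.0536). Among libraries with AY036118 high, 1 DMSO and 2 GSK, it was -0.66 (adjusted p = 0.0928), a fit that gives the single DMSO library the spread of the remaining groups.

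Itgax, which codes for CD11c and is found on many tumour macrophages as well as on dendritic cells, had the other unadjusted p under 0.05. It measured 9.93, 10.50 and 9.85 in the DMSO and 10.99, 10.36 and 10.55 in the GSK day 8 libraries. DMSO library 2 lay within the range of the GSK libraries, so the groups overlapped. The change was 0.54 (SE 0.20, 95% interval 0.11 to 0.96, adjusted p = 0.203) and was -0.05 among libraries with AY036118 high. Members whose groups did not overlap on day 8 numbered 1 of 10, Itgam, against 16.2% of all genes.

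Itgb2 had day 8 values of 8.75, 8.58 and 8.51 in DMSO libraries and of 8.37, 9.04 and 9.28 in GSK libraries. GSK library 1 was the lowest of the 6 and the other 2 GSK libraries the highest. The difference of 0.28 (95% interval -0.13 to 0.70) did not pass (adjusted p = 0.501, limma). The other 7 members differed by 0.00 (Itga4) to 0.27 (Itgb1), with adjusted p from 0.405 to 0.995. The widest of their intervals, that of Itga6, ran from -0.36 to 0.74. Over the 10 members the median change was 0.12, beside 0.02 over all genes.

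**Figure D2:**
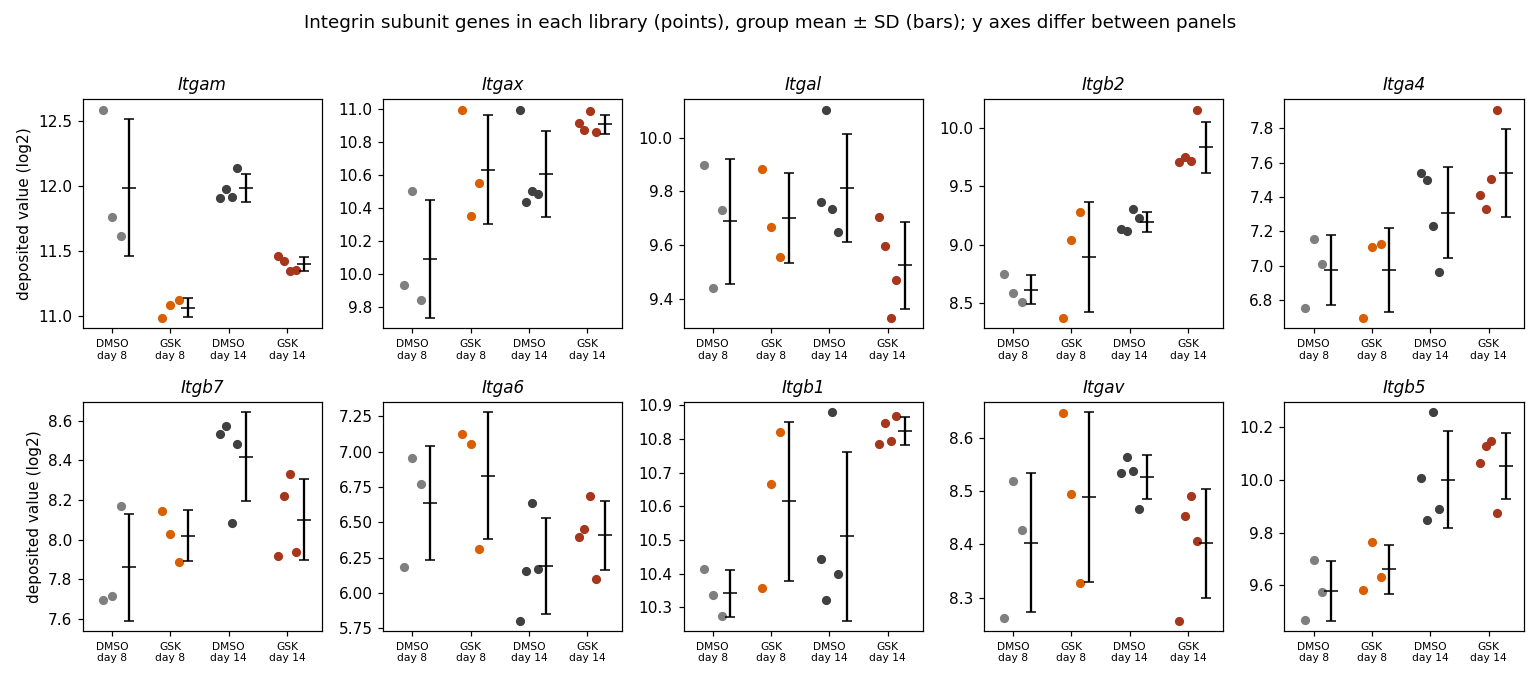
Deposited log2 values of the 10 integrin genes in each of the 14 libraries (points), in panels with their own y axis, by group, with group mean ± SD at the right of each group. Itgam is lower in GSK than in DMSO libraries on both days, and Itgb2 is highest in the 4 GSK day 14 libraries.

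On day 14 the same comparison called 2 members, partners in 1 receptor, in opposite directions. Itgam was 1.51-fold lower and Itgb2 1.55-fold higher in macrophage fractions of GSK tumours, while the other 8 members did not pass. Of all genes 10.8% were called, 5.10% higher and 5.73% lower. For both the groups did not overlap, as for 22.0% of all genes, so 2 of 10 members is a share near that of other genes.

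Itgam measured 11.91, 11.98, 11.92 and 12.14 in the DMSO day 14 libraries and 11.46, 11.42, 11.35 and 11.36 in the GSK day 14 libraries. All 4 GSK libraries lay below all 4 DMSO libraries. The means were 11.99 ± 0.11 and 11.40 ± 0.05 (SD, n = 4 each). Itgam fell by 0.59 (SE 0.17, 95% interval -0.95 to -0.24, limma adjusted p = 0.036). Summed with Gm49368 the change was -0.58 (adjusted p = 0.0369), and among libraries with AY036118 high, 2 DMSO and 4 GSK, it was -0.52 (adjusted p = 0.0283).

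Itgb2 (ENSMUSG00000000290, chromosome 10 from 77530252 to 77565708) measured 9.14, 9.12, 9.30 and 9.23 in the DMSO and 9.71, 9.75, 9.72 and 10.15 in the GSK day 14 libraries. All 4 GSK libraries were above all 4 DMSO libraries, and GSK library 4 was the highest by far. The means were 9.20 ± 0.09 and 9.83 ± 0.22 (SD, n = 4 each). Itgb2 rose by 0.63 (SE 0.17, 95% interval 0.27 to 0.99, limma adjusted p = 0.0293). Without GSK day 14 library 4 the change was 0.53 and did not pass (adjusted p = 0.123), and among libraries with AY036118 high it was 0.61 (adjusted p = 0.042).

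Both day 14 calls lay close to the threshold while their sizes moved little. Leaving out 1 library at a time gave Itgam changes from -0.62 to -0.54 and Itgb2 changes from 0.53 to 0.67. The Itgam call ended without any of DMSO day 14 libraries 1, 2 and 4 or GSK day 14 libraries 1, 2, 3 and 4 (adjusted p up to 0.114), and the Itgb2 call without DMSO day 14 library 1, 2 or 4 or GSK day 14 library 2 or 4 (adjusted p up to 0.123). Each such fit has 1 sample fewer in a group. With the AY036118 split as a term in the fit neither passed, Itgam at -0.53 (adjusted p = 0.112) and Itgb2 at 0.52 (adjusted p = 0.109). Without the filter on low values neither passed (adjusted p = 0.0839 and 0.0719), and after quantile normalisation Itgam did not, at -0.46 (adjusted p = 0.084).

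**Figure D3:**
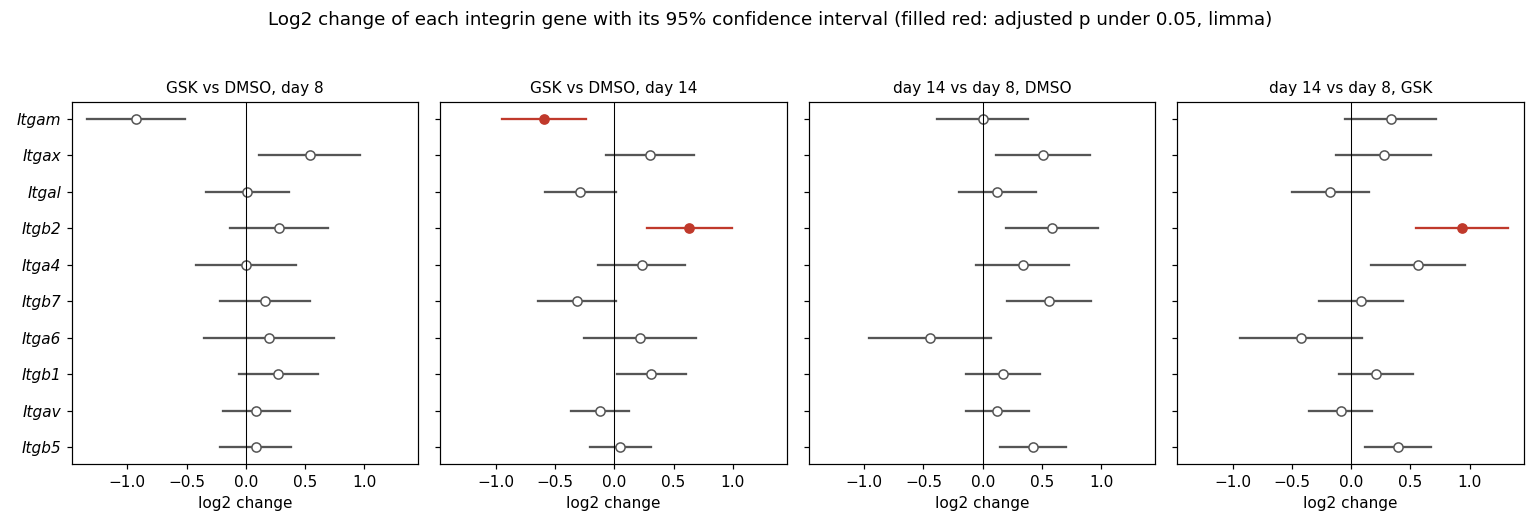
Log2 change of each integrin gene (point) with its 95% confidence interval (line) in 4 comparisons, on a shared x axis; filled red points passed at an adjusted p under 0.05 in limma. Itgam and Itgb2 passed on day 14 at -0.59 and 0.63, and Itgb2 passed between the days in GSK tumours at 0.93.

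The other alpha partners of Itgb2 did not pass on day 14. Itgax was at 10.99, 10.44, 10.51 and 10.48 in DMSO and at 10.91, 10.87, 10.99 and 10.86 in GSK libraries. DMSO library 1 was as high as the GSK libraries and the other 3 were below all of them, and the difference was 0.30 (95% interval -0.07 to 0.67, adjusted p = 0.28). Itgal, the alpha subunit of the lymphocyte function antigen that myeloid cells also carry, differed by -0.29 (95% interval -0.59 to 0.01, adjusted p = 0.203), with libraries from 9.65 to 10.10 in DMSO and from 9.33 to 9.70 in GSK.

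Among the members that pair with Itgb1 or Itgb7, Itgb1 itself, the beta subunit of most matrix receptors, differed by 0.31 (95% interval 0.02 to 0.60, adjusted p = 0.15). The 4 GSK libraries lay between 10.79 and 10.87, and 3 of the DMSO libraries between 10.32 and 10.44, but DMSO library 3 was at 10.88. Without that library the difference was 0.44 and passed (adjusted p = 0.0352). Itgb7, best known from lymphocytes that home to the gut, differed by -0.32 (95% interval -0.65 to 0.01, adjusted p = 0.198), Itga4 by 0.23 (adjusted p = 0.423) and Itga6 by 0.22 (adjusted p = 0.576).

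Neither gene of the alpha-v pair passed on day 14. Itgav lay between 8.26 and 8.65 in all 14 libraries and differed by -0.12 on day 14 (95% interval -0.37 to 0.12, adjusted p = 0.532). Itgb5 differed by 0.05 (95% interval -0.21 to 0.31, adjusted p = 0.83). The median day 14 change of the 10 members was 0.14, beside 0.02 over all genes.

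Levels of the marker lists were read beside these results. For neutrophils, which also carry Itgam, Itgb2 and Itgal, 9 of 10 markers were in the table and 5 passed the filter, none of which was called on day 14. Their summed level, set mostly by Retnlg, was 11.1 to 11.4 in DMSO and 10.4 to 11.3 in GSK day 14 libraries. On day 8 it was 10.3 to 10.9 and 10.6 to 10.7. For dendritic cells, which carry Itgax and Itgam, 5 of 8 markers were tested and none was called on day 14. The summed level was 8.85 to 9.39 in DMSO and 8.21 to 8.74 in GSK libraries, without overlap. That sum was mostly the 1 gene Batf3, at 8.54 to 9.21 and 7.69 to 8.40. Of the 5 tested markers 1 had a positive change, Ccr7, with means of 4.95 in DMSO and 5.22 in GSK libraries. Of 10 macrophage markers 3 were higher and 2 lower on day 14, beside 5.10% and 5.73% of all genes. The summed level was 17.0 to 17.9 in DMSO and 16.8 to 17.1 in GSK libraries. C1qa, the highest of the 10, had means of 16.78 in DMSO and 15.93 in GSK libraries, while 7 of the 10 had a positive change. Of 13 mitochondrially encoded genes, a sign of RNA quality, 5 were higher, beside 5.10% of all genes. A positive change was found for 12 of the 13, with a median of 0.88 beside 0.02 over all genes. The summed levels of the 13 were 15.8 to 16.1 in DMSO and 16.0 to 16.7 in GSK libraries. The part of these marker lists in the Itgam and Itgb2 results was not tested.

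The difference between the day 14 and the day 8 effects of the pre-treatment was tested directly. It passed for 0 of the 10 members, and 0 of the 10 had an unadjusted p under 0.05, beside 987 of the 11886 kept genes. Over all genes 0.00841% passed, which is 1 gene. For Itgam the difference was 0.34 (95% interval -0.21 to 0.88, adjusted p = 0.715), for Itgb2 0.35 (-0.20 to 0.90, adjusted p = 0.709) and for Itgb7 -0.48 (-0.98 to 0.03, adjusted p = 0.605). A smaller day 14 than day 8 effect on Itgam was therefore not shown.

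Because Itgam and Itgb2 code for partners in 1 receptor, their difference within each library was also described, a quantity that library scaling does not affect. Itgb2 minus Itgam was -3.84, -3.18 and -3.11 in the DMSO day 8 libraries and -2.61, -2.05 and -1.84 in the GSK day 8 libraries. On day 14 it was -2.78, -2.86, -2.61 and -2.91 in DMSO and -1.76, -1.68, -1.63 and -1.20 in GSK libraries. On each day every GSK library was closer to 0 than every DMSO library, with means of -3.37 ± 0.41 and -2.17 ± 0.40 on day 8 (SD, n = 3 each) and of -2.79 ± 0.13 and -1.57 ± 0.25 on day 14 (SD, n = 4 each). On day 14 this separation follows from that of Itgam and of Itgb2, given above, and adds no further result. The pair was singled out with the changes of its members known, so no test is given.

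**Figure D4:**
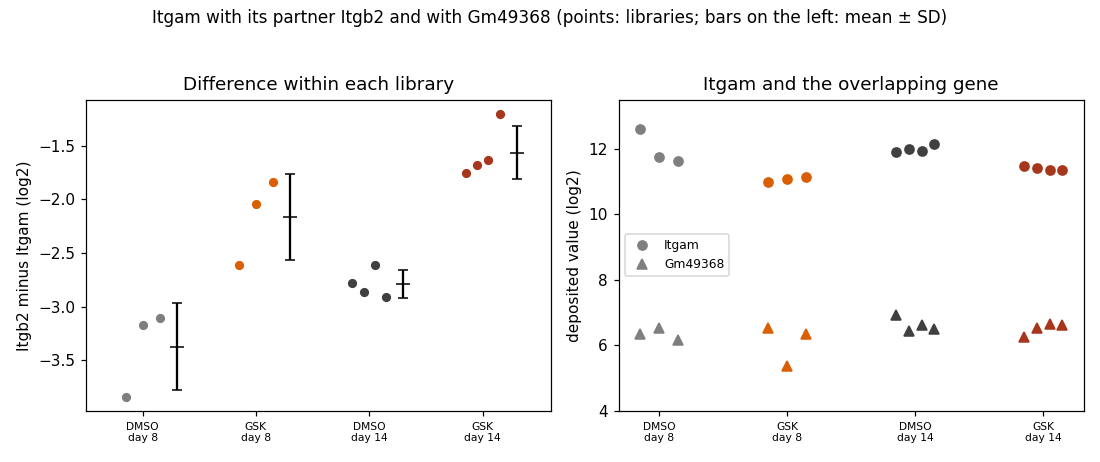
Left, the log2 value of Itgb2 minus that of Itgam in each library (points) with group mean ± SD; right, deposited log2 values of Itgam (circles) and of the overlapping gene Gm49368 (triangles). The GSK libraries lie above the DMSO libraries of the same day on the left, and Gm49368 stays between 5.39 and 6.93 on the right.

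The other pairs moved less. Itgb2 minus Itgal was -0.61 ± 0.26 in DMSO and 0.31 ± 0.30 in GSK day 14 libraries (SD, n = 4 each) without overlap, while on day 8 the groups overlapped at -1.07 ± 0.19 and -0.80 ± 0.64 (SD, n = 3 each). Itgb2 minus Itgax overlapped between DMSO and GSK libraries on both days. Itgb1 minus Itgav was 1.99 ± 0.25 in DMSO and 2.42 ± 0.10 in GSK day 14 libraries (SD, n = 4 each), from 1.76 to 2.34 and from 2.30 to 2.53, with overlap. Itgb5 minus Itgav was 1.48 ± 0.18 and 1.65 ± 0.14 on day 14 (SD, n = 4 each) and 1.18 ± 0.03 and 1.17 ± 0.20 on day 8 (SD, n = 3 each).

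The time comparison within DMSO tumours called 0 of the 10 members, beside 0.824% of all genes. An unadjusted p under 0.05 in limma was found for 1828 of the 11886 kept genes and for 4 of the 10 members. These were Itgb7 (0.56, SE 0.17, adjusted p = 0.127), Itgb5 (0.42, SE 0.13, adjusted p = 0.14), Itgb2 (0.58, SE 0.18, adjusted p = 0.142) and Itgax (0.51, SE 0.19, adjusted p = 0.213). For Itgb2 and Itgb5 all 4 day 14 libraries lay above all 3 day 8 libraries, 2 of 10 members beside 10.1% of all genes. Itgb5 was at 9.47, 9.70 and 9.57 on day 8 and at 10.01, 9.85, 10.26 and 9.89 on day 14. Itgb2 passed without GSK day 8 library 1, which enters through the shared variance (adjusted p = 0.0464). Itgam had the same mean on both days, 11.99, with a difference of 0.00 (95% interval -0.39 to 0.38). Without DMSO day 8 library 1 the difference was 0.30 (SE 0.13, adjusted p = 0.393), and it was also above 0 after quantile normalisation (0.08), with quality weights (0.19) and in AY036118-high libraries (0.16).

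Within GSK tumours 1 of the 10 members was called between the days, beside 7.01% of all genes, 3.05% higher. Itgb2 rose by 0.93 from day 8 to day 14 (SE 0.18, 95% interval 0.55 to 1.32, 1.91-fold higher; adjusted p = 0.011, limma), from 8.90 ± 0.47 (SD, n = 3) to 9.83 ± 0.22 (SD, n = 4). The 3 day 8 libraries reached at most 9.28 and the 4 day 14 libraries at least 9.71. Without GSK day 8 library 1, the lowest, the change was 0.67 and the call ended (adjusted p = 0.0541), and among libraries with AY036118 high it was 0.67 (adjusted p = 0.0497).

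For 4 of the 10 members the GSK groups of the days did not overlap, all higher on day 14, beside 30.3% of all genes in either direction and 15.1% higher. Besides Itgb2 these were Itga4 (0.56, SE 0.19, adjusted p = 0.0734), Itgb5 (0.39, SE 0.13, adjusted p = 0.0761) and Itgam (0.34, SE 0.18, adjusted p = 0.268). Itga4 went from 6.69, 7.11 and 7.13 to 7.41, 7.33, 7.50 and 7.91. Both time comparisons share libraries with the comparisons of pre-treatment, so they do not stand apart from them.

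Itga6, a laminin receptor subunit that epithelium and endothelium also express, was the member with the most negative time differences, -0.45 in DMSO and -0.42 in GSK tumours, and neither passed (adjusted p = 0.399 and 0.299). Markers of those cell types moved in the same direction. The summed level of the 4T1 epithelium list (11 of 12 genes in the table) was 11.2 to 11.5 on day 8 and 10.3 to 10.99 on day 14 in DMSO libraries. In GSK libraries it was 10.8 to 11.9 and 10.2 to 10.7. Of 9 tested markers 7 fell in GSK tumours, beside 470 of 11886 genes, and 1 in DMSO tumours, beside 0.824% of all genes called in either direction. Cdh1, the highest of the list, had GSK means of 10.34 on day 8 and 10.32 on day 14. The endothelial list (8 of 8 genes) was 10.9 to 11.1 and 10.2 to 10.6 in DMSO and 10.5 to 11.1 and 9.98 to 10.3 in GSK libraries. Of the 8, 1 fell in GSK tumours, beside 470 of 11886 genes, and none in DMSO tumours. This sum was mostly Pecam1, with GSK means of 10.34 on day 8 and 9.63 on day 14. The part of both lists in the Itga6 values was not tested.

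The remaining integrin genes form a list of 16 subunits, of which 8 passed the filter. On day 8 and on day 14 none of the 8 differed with pre-treatment past the threshold. Between the days in GSK tumours 1 rose and 2 fell, beside 7.01% of all genes called in either direction. Itga9, which binds tenascin and Vcam1, rose by 0.64 (SE 0.16, adjusted p = 0.031). Itgb3, the platelet and osteoclast beta subunit that also pairs with Itgav, fell by 1.04 (SE 0.30, adjusted p = 0.0459), from 7.86 ± 0.13 (SD, n = 3) to 6.83 ± 0.47 (SD, n = 4). Itga3, a laminin receptor subunit of epithelium, fell by 1.07 (SE 0.29, adjusted p = 0.0388), from 4.68 ± 0.66 (SD, n = 3) to 3.62 ± 0.05 (SD, n = 4), near the filter. The summed level of the platelet list was 12.5 to 13.3 on day 8 and 12.1 to 12.4 on day 14 in GSK libraries. It was almost all from the 1 gene Pf4, at 12.47 to 13.29 and 12.05 to 12.34. Of the 4 tested markers 1 fell past the threshold, beside 470 of the 11886 kept genes, and 1 had a positive change, Treml1. The part of this list in the Itgb3 value was not tested. In DMSO tumours none of the 8 subunits passed, with Itgb3 at -0.77 (adjusted p = 0.239). Itgae and Itgb8 stayed below 0 on the log2 scale in all libraries.

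Integrins are switched on from inside the cell, when talin and kindlin bind the tail of the beta subunit. Of 24 genes for this step 20 were tested. None passed on day 8, and on day 14 2 rose and none fell in GSK tumours, beside 5.10% of all genes higher and 5.73% lower. The small GTPase gene Rap1a rose by 0.71 (SE 0.22, adjusted p = 0.0468), from 7.97 ± 0.47 to 8.68 ± 0.15, and the adaptor gene Skap2 by 0.39 (SE 0.12, adjusted p = 0.0415), from 9.76 ± 0.14 to 10.15 ± 0.05 (SD, n = 4 each). Talin, Tln1, was at 10.98 ± 0.25 and 11.14 ± 0.09 on day 14 (SD, n = 4 each), and the leukocyte kindlin Fermt3 at 10.81 ± 0.83 and 10.86 ± 0.36 (SD, n = 4 each). Between the days in GSK tumours Skap2 rose by 0.50, while Itgb1bp1, which competes with talin for the Itgb1 tail, fell by 0.62 and the epithelial kindlin Fermt1 by 1.54. Of the 20 tested genes 1 thus rose and 2 fell, beside 363 and 470 of the 11886 kept genes.

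Of 37 genes for adhesion signalling and links to the cytoskeleton 35 were tested, and on day 14 3 rose and 3 fell, beside 5.10% and 5.73% of all genes. The GTPase gene Rhoa fell by 0.74 (SE 0.13, adjusted p = 0.00608), from 10.73 ± 0.09 to 9.99 ± 0.11 (SD, n = 4 each). The adaptor gene Lcp2, which acts downstream of integrins in myeloid cells, fell by 0.83 and the actin crosslinker Flna, which binds beta tails, by 0.66. Among those that rose, the kinase gene Src did so by 0.89 (SE 0.20, adjusted p = 0.0151). On day 8 none of the 35 passed. The medians of this list were 0.01 on day 14 and 0.12 on day 8, beside 0.02 over all genes on each day.

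Between the days, the parvin gene Parvg, which links integrin-linked kinase to actin in blood cells, rose in DMSO tumours by 0.88 (adjusted p = 0.0188) and in GSK tumours by 0.69 (adjusted p = 0.0227). Vinculin, Vcl, fell by 0.94 in DMSO tumours, from 4.03 ± 0.42 (SD, n = 3) to 3.09 ± 0.27 (SD, n = 4), below the filter on day 14. In GSK tumours Actn4 rose by 0.86 while Lcp2 fell by 0.70 and the focal adhesion kinase gene Ptk2 by 0.68. Of the 35 tested genes 1 rose and 1 fell in DMSO tumours, beside 36 and 62 of the 11886 kept genes. In GSK tumours 2 rose and 2 fell, beside 363 and 470 of them.

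Ligands on other cells and in matrix were tested as lists of their own. Of 14 cell-surface ligands 8 were tested and none passed on either day. Vcam1, the ligand of Itga4 receptors, was at 12.74 ± 0.13 and 12.45 ± 0.14 in DMSO and GSK day 14 libraries (SD, n = 4 each), and Icam1, the ligand of Itgal and Itgam receptors, at 9.55 ± 0.20 and 9.77 ± 0.08 (SD, n = 4 each). Of 29 matrix and soluble ligands 20 were tested. On day 14 1 of the 20 rose, beside 5.10% of all genes higher, a share near that of other genes. It was Tgfbi, a secreted protein that binds alpha-v and other integrins. Tgfbi rose by 0.78 (SE 0.18, limma adjusted p = 0.0166), from 12.13 ± 0.38 to 12.91 ± 0.03 (SD, n = 4 each). Of the 20, 18 had a positive change on day 14, beside 52.4% of all genes, with a median of 0.14 beside 0.02 over all genes. Spp1, which codes for osteopontin, was at 0.62 (adjusted p = 0.11), Mfge8 at 0.49 (adjusted p = 0.119) and Tgfb1 at -0.48 (adjusted p = 0.122), and among the cell-surface ligands F11r was at -0.54 (adjusted p = 0.144). Between the days in GSK tumours 4 of the 20 fell, beside 470 of the 11886 kept genes. Among them were the basement membrane genes Col4a2 (-1.49), Col4a1 (-1.15) and Lamb1 (-1.15). In DMSO tumours Col4a1 fell by 1.56. The epithelial and endothelial lists that fell with them are given above beside Itga6. Alcam was the 1 cell-surface ligand of 8 tested that rose between the days in GSK tumours (0.70), beside 363 of the 11886 kept genes.

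Membrane proteins that sit beside integrins formed a list of 14, all tested, of which 4 rose on day 14 and none fell, beside 5.10% of all genes higher. Cd9 rose by 1.05 (SE 0.30, adjusted p = 0.0379), Cd53 by 0.83 (SE 0.24, adjusted p = 0.0364), Cd63 by 0.78 (SE 0.19, adjusted p = 0.02) and Cd81 by 0.56 (SE 0.17, adjusted p = 0.0455). These code for tetraspanins, as do Cd37 (-0.25), Tspan32 (-0.06), Cd82 (0.16) and Cd151 (0.15) of the same list, which did not pass. The median of the 14 was 0.23 on day 14 and 0.22 on day 8, when none passed. Cd9, Cd63 and Cd81 also rose between the days in GSK tumours, by 1.21, 0.74 and 0.81. These were 3 of the 14, beside 3.05% of all genes higher.

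Genes whose values over the 14 libraries were most like those of each member were found by Pearson correlation, which here follows group differences as well as variation within groups and is given as a description. For Itgam these were Ptpn7 (r = 0.908), Dennd4a (0.905) and Srebf2 (0.904). For Itgb2 they were Abhd4 (0.965), the actin gene Actg1 (0.964) and Cst3 (0.959), and for Itgax Tmem119 (0.958), Trem2 (0.929) and Fgd2 (0.908). Itga4 was most like Asph (0.951), Itgb1 like Arf3 (0.947) and Anxa1 (0.947), Itgb7 like Pld4 (0.894) and Itgb5 like Wdfy4 (0.897). The highest values were lower for Itgav (Nelfe and Tbl2, 0.837 each) and Itga6 (Cela1, 0.828).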

How the data were processed

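Expression was measured in 14 libraries of F4/80-positive tumour fractions. The deposited file holds log2-scale values that the authors normalised, per the file's name and values, and the transformation is not given in the sources used here; a transformation that compresses low values would make differences of low genes look smaller. The submitters' processing notes name Bowtie2, RSEM 1.2.29, DESeq2 1.12.4, mm10 and GRCh38, with no role. All 14 columns were matched to libraries by the labels' descriptions. Symbols, coordinates and exon lengths came from GENCODE M21 (GRCm38) by Ensembl identifier, and 24483 of 24556 matched. Genes with an unlogged value of at least 10 in at least 3 libraries were kept (11886). A limma 3.58.1 model (R 4.3.3) with 4 group means and a variance trend was fitted to all libraries and tested on simulated data. All tests are two-sided, with Benjamini-Hochberg adjustment over all kept genes of each comparison, with 0.05 as threshold. SE is that of limma. A marker list's summed level is the log2 of its summed unlogged values. Members and lists were chosen with earlier results of these data known. All members are named, as are up to 4 genes past the threshold per pathway list and direction, and genes most like the members, except a few genes that are not reported here. Other settings changed the filter, scaling, weights, replicate block, libraries fitted and the AY036118 split; summing Itgam with Gm49368 was chosen after seeing the data.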

Additional observations from a re-analysis of the deposited data

Results flagged for a closer look

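Within a day 14 group, 2 libraries lay far from the other 3 for a member, out of 20 sets of 4 values examined, where chance gives about 1 in 20. Itgb2 in GSK day 14 library 4 was at 10.15 while the others lay between 9.71 and 9.75, a gap of 0.91 of the group's range. Without it the day 14 change of Itgb2 was 0.53 (limma adjusted p = 0.123). Itgax in DMSO day 14 library 1 was at 10.99 while the others lay between 10.44 and 10.51, a gap of 0.878 of the range. Without it the day 14 difference of Itgax was 0.43 (limma adjusted p = 0.123).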

How the results depend on the processing

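Outside the fits that leave out 1 library, 490 values of single members were recomputed, of which 453 kept their direction and side of the threshold, 22 changed sign, 9 newly passed and 6 lost their call; the cause was not tested. Called members on day 8 numbered 1 with a minimum of 50 or with library quality weights. On day 14 they numbered 0 without the filter or with the AY036118 split as a term and 1 after quantile normalisation. Between the days in GSK tumours they numbered 2 after quantile normalisation or with only the groups compared and 6 with quality weights. Leaving out 1 library gave 0 to 1 members on day 8, 0 to 3 on day 14, 0 for the difference of effects and 0 to 1 in each time comparison.

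Replicate numbers did not pair the libraries, since deviations of same-numbered libraries correlated between -0.344 and 0.171. With the replicate block 1 member was called on day 14 (Itgam, adjusted p = 0.0504, did not pass in limma), and all genes called numbered 4 for the difference of effects, 65 for time in DMSO and 301 for time in GSK tumours.

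All genes called on day 8 numbered 0 without the filter in limma, where 2907 had an unadjusted p under 0.05, 37 with a minimum of 50, 317 with quality weights, 2 with only the groups compared, 8 with the split term and 76 in AY036118-high libraries. On day 14 they numbered 540 without the filter, 2373 with weights and 362 with the split term, and for the difference of effects 12 in AY036118-high libraries. For time in DMSO tumours they were 30, 19, 22 and 26 (no filter, weights, groups compared, AY036118-high) and in GSK tumours 257, 3523, 1517 and 290, and 471 with the split term. Leaving out 1 library gave 0 to 208, 221 to 1628, 1 to 12, 24 to 305 and 112 to 1218 genes in the 5 comparisons, in this order.

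Signs changed for these differences, none of which had passed. On day 8 they were Itgal (TMM -0.0013), Itga4 (TMM -0.011, quantile -0.038, split term -0.085, AY036118-high -0.038), and in AY036118-high libraries Itgax (-0.052), Itgav (-0.11) and Itga6 (-0.27). On day 14 Itgb5 was -0.045 with the split term and -0.079 in AY036118-high libraries. The difference of effects was 0.089 for Itgb5 and -0.030 for Itga6 (quantile), 0.049 and 0.21 for Itgax (weights, AY036118-high), and -0.053, -0.00044 and -0.24 for Itgb1 (weights, split term, AY036118-high). Itgam over time in DMSO tumours was 0.081 (quantile), 0.19 (weights), 0.021 (split term), 0.16 (AY036118-high) and 0.0047 (summed with Gm49368). Leaving out 1 library gave on day 8 Itga4 -0.11 to 0.14, Itga6 -0.031 to 0.45 and Itgal -0.11 to 0.12; for the difference of effects Itgb5 -0.086 to 0.057, Itga6 -0.23 to 0.25 and Itgb1 -0.089 to 0.16; and over time in DMSO tumours Itgam -0.19 to 0.30 and Itgal -0.0021 to 0.23. Depth is unknown, so no limit from counting can be given.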

Other observations

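Over the 14 libraries the members did not vary as 1 group. Itgb2 had its highest correlations with Itgb1 (Pearson r = 0.812), Itga4 (0.787) and Itgb5 (0.693), none of which is its partner. With its partners it had 0.516 (Itgax), -0.447 (Itgal) and -0.171 (Itgam). Itgam had no correlation above 0.383 (Itgal) with any member, and -0.522 with Itga6. These values describe 14 libraries that share the group differences given above, and they carry no test.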
